A study of Oryza sativa with 14 samples.

Results

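Genes for chloroplast enzymes of the Calvin cycle other than Rubisco were followed in rice seedlings. They were taken by gene identifier and numbered 8 of the 38978 genes in the deposited RNA-seq table, and all 8 passed the filter on low values that 24380 genes passed. They encode phosphoglycerate kinase (PGK, Os05g0496200, deposited symbol OsPGK3), the A and B subunits of glyceraldehyde-3-phosphate dehydrogenase (GAPA, Os04g0459500, and GAPB, Os03g0129300), fructose-bisphosphate aldolase (ALDP, Os11g0171300, Aldo), fructose-1,6-bisphosphatase (FBPase, Os03g0267300, OsCFR), transketolase (TK, Os06g0133800, OsTK), sedoheptulose-1,7-bisphosphatase (SBPase, Os04g0234600) and phosphoribulokinase (PRK, Os02g0698000, OsPrk). The deposited descriptions name the enzyme for 6 of them. That of TK says only transferase, and that of Os04g0459500 names only a clone protein. The identity of the latter as GAPA, like the assignment of Os03g0129300 to subunit B, comes from the list of genes and not from the table.

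The plants were wild type (WT) rice of the cultivar Kitaake and osnat10, a line named after the RNA cytidine acetyltransferase N-acetyltransferase 10. The sources used here give neither the lesion of osnat10, its parent line nor whether it is 1 clone or several, and they do not give the age or harvest time of the plants. Both genotypes were raised on Yoshida solution in short days, lit for 10 h and dark for 14 h. The labelled tissue was seedlings, with 3 biological replicates per genotype for RNA-seq. The N4-acetylcytidine (ac4C) pull-down libraries of the same series were not analysed here, and no symbol or description in the table named OsNAT10, so the targeted gene was not checked.

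In the Calvin cycle, Rubisco fixes carbon dioxide onto ribulose-1,5-bisphosphate. PGK and the GAPDH complex then reduce the product to triose phosphate with the ATP and NADPH of the light reactions. Aldolase, transketolase, the bisphosphatases and phosphoribulokinase rebuild the acceptor from triose phosphates. FBPase, SBPase, PRK and the GAPB-containing dehydrogenase are switched on in the light through thioredoxins, and the small protein CP12 ties GAPDH and PRK into an inactive complex in the dark.

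Values are RPKM, which divides a gene's reads by its length and by the depth of the library, so levels can be set side by side between genes, and values per library are given in the order of replicates 1, 2 and 3. The libraries held 13688629 to 15583776 reads over genes. A member had 4361 to 73487 reads in a library, and counting error alone, which treats reads as independent, was at most 1.51% of its value. Reads of the 8 genes together made up 2.04%, 1.09% and 0.842% of the WT libraries and 0.894% to 1.06% of the osnat10 libraries.

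All 8 transcripts were highest in WT replicate 1, and within osnat10 all 8 were highest in replicate 2. Their values differed more within WT than within osnat10, with a larger SD of log2 in WT for each of the 8 genes. The share of all tested genes with this order was not counted, so it is not shown to be particular to the members. The Rubisco activase gene OsRcaII had it too (SD of 1.82 in WT and 0.20 in osnat10), while the isomerase gene OsTPI1 had the reverse (0.011 and 0.061). Between the genotypes, 4 genes (PGK, TK, SBPase and PRK) lay lower in all 3 osnat10 libraries than in all 3 WT libraries, as did 7.79% of tested genes, and the genotypes overlapped for the other 4 genes. No member passed the test across all genes, at an adjusted p under 0.05 in limma. In bulk tissue, fewer photosynthetic cells and less of a transcript per cell cannot be told apart.

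**Figure D1:**
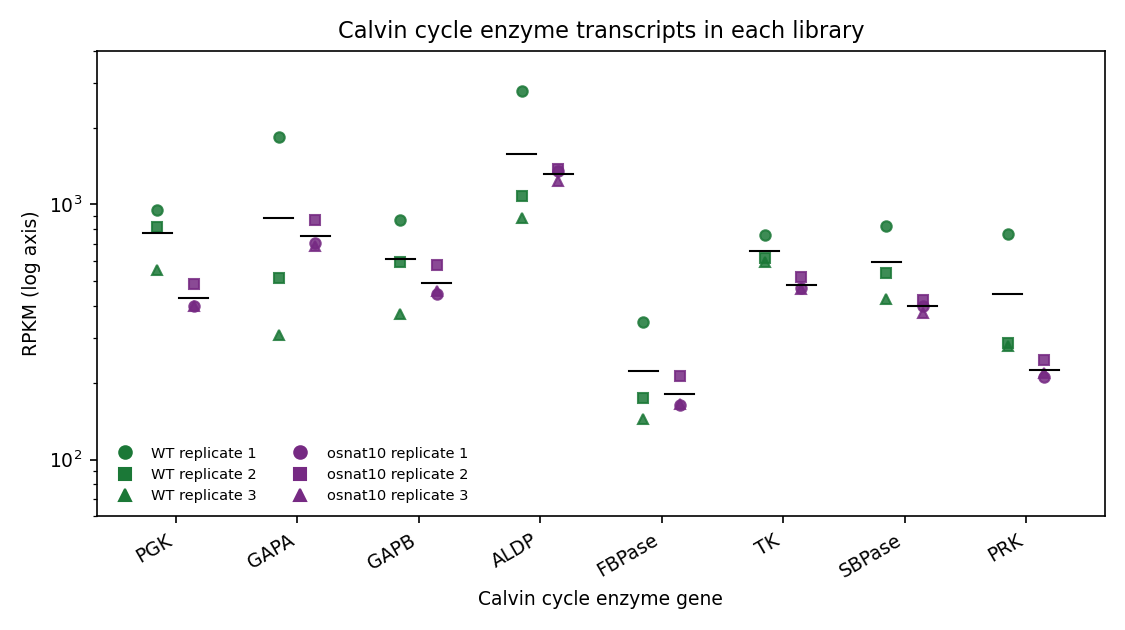
RPKM of the 8 Calvin cycle enzyme genes (log axis) in each of 3 WT and 3 osnat10 libraries, with 1 point per library and a bar at the mean of each genotype. WT replicate 1 is the highest point for every gene, and all osnat10 points lie below all WT points for PGK, TK, SBPase and PRK.

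Among the genes of the reduction steps, PGK, which phosphorylates 3-phosphoglycerate, was the only gene whose genotypes did not overlap. It measured 948, 817 and 551 RPKM in the WT libraries, against 399.8, 489.7 and 399.96 in the osnat10 libraries. The highest osnat10 library lay below the lowest WT library. The mean was 772 ± 202 RPKM in WT and 430 ± 51.9 in osnat10 (SD, n = 3 each), a ratio of 0.557. The log2 fold change in limma was -0.81 (SE 0.26, 95% interval -1.42 to -0.21), with an unadjusted p of 0.015 and an adjusted p of 0.16.

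GAPA, whose product makes up the dehydrogenase together with GAPB, varied most among the 8 genes. It measured 1829.8, 513 and 307 RPKM in the WT libraries, against 708, 869 and 689 in the osnat10 libraries. All osnat10 values lay between WT replicate 1 and the other two WT libraries. WT spanned a 5.96-fold range and osnat10 a 1.26-fold range. The log2 fold change was 0.18 with an interval of -1.18 to 1.55 (limma adjusted p = 0.89), so neither a 2-fold fall nor a 2-fold rise lay outside the interval.

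GAPB, the subunit with the redox-sensitive tail, measured 871, 594 and 371 RPKM in the WT libraries, against 444, 579 and 458 in the osnat10 libraries. All osnat10 values lay within the WT range. Its log2 fold change was -0.23 (interval -0.99 to 0.53, limma adjusted p = 0.73).

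Of the genes that rebuild the acceptor, ALDP, which joins triose phosphates, was the most abundant of the 8 in every library. It measured 2778, 1077 and 884 RPKM in the WT libraries, against 1349, 1378 and 1235 in the osnat10 libraries. As with GAPA, the osnat10 libraries lay above WT replicates 2 and 3 and below WT replicate 1. The log2 fold change was -0.068 (interval -1.08 to 0.95, limma adjusted p = 0.95).

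FBPase, which removes a phosphate group from fructose-1,6-bisphosphate, was the least abundant of the 8 in every library. It measured 346, 174 and 144 RPKM in the WT libraries, against 164, 213 and 165 in the osnat10 libraries. Its osnat10 values lay inside the WT range. The log2 fold change was -0.20 (interval -0.96 to 0.56, limma adjusted p = 0.78).

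TK, which moves 2-carbon units between sugar phosphates, was the steadiest member in WT. It measured 759, 618 and 593 RPKM in the WT libraries, against 471, 518 and 464 in the osnat10 libraries, with no overlap between the genotypes. The means were 657 ± 89.8 and 485 ± 29.5 RPKM (SD, n = 3 each), and the log2 fold change was -0.43 (SE 0.21, interval -0.91 to 0.050, limma adjusted p = 0.30).

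SBPase, which removes a phosphate group from sedoheptulose-1,7-bisphosphate, measured 826, 537 and 424.3 RPKM in the WT libraries, against 401, 422.5 and 374 in the osnat10 libraries. The genotypes were separated only narrowly, by WT replicate 3 and osnat10 replicate 2. The means were 596 ± 207 and 399 ± 24.3 RPKM, and the log2 fold change was -0.52 (SE 0.27, interval -1.16 to 0.11, limma adjusted p = 0.34).

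PRK, which makes the acceptor ribulose-1,5-bisphosphate, measured 767, 288 and 278 RPKM in the WT libraries, against 210.1, 245 and 218 in the osnat10 libraries. The genotypes did not overlap, but WT replicate 1 lay far above the other libraries. The means were 444 ± 280 and 224 ± 18.1 RPKM (SD, n = 3 each), a ratio of 0.505. The log2 fold change was -0.82 (SE 0.38, interval -1.71 to 0.077, limma adjusted p = 0.29), and without WT replicate 1 it was -0.34 (adjusted p = 0.18).

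In order of mean RPKM over the 6 libraries, ALDP (1450) led GAPA (819), PGK (601), TK (571), GAPB (553), SBPase (497), PRK (334) and FBPase (201). The ranges over the 6 libraries overlapped between each pair of neighbours in this order. Within single libraries GAPA held rank 2 of the 8 in WT replicate 1 and in all osnat10 libraries and rank 6 in the other WT libraries. PGK held rank 2 or 3 in WT and rank 5 or 6 in osnat10.

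Across all 24380 tested genes limma called 37 genes (0.152%), 7 of them lower in osnat10 (0.0287%) and 30 higher (0.123%), and it called 0 of the 8 members at an adjusted p under 0.05. At an unadjusted p under 0.05 there was 1 member, PGK, and 4693 genes in all. A negative log2 fold change was found for 7 of the 8 members and for 40.1% of all tested genes. The members' median was -0.33, against 0.11 for all tested genes. Scaling by the median of ratios moved these medians to -0.44 and 0.01, and quantile normalisation to -0.34 and -0.03. Values of all 3 osnat10 libraries below all WT libraries were found for 4 of the 8 members and for 7.79% of tested genes, and the reverse for 0 members and 17.2%. The same 4 members lay below under median of ratios scaling, with 14.1% of tested genes, and under quantile normalisation, with 15.4%.

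The authors' deposited table, a DESeq2 comparison, had a negative log2 fold change for all 8 members. The share of negative values over all its genes was not counted, so this count has no background beside it. Genes outside the members also lay lower there than in limma, such as the antenna gene CAB2R (-0.46 against 2.49) and OsRcaII (-0.56 against 0.44). In the authors' deposited table, 1 member had an adjusted p under 0.05, as had 6.2% of the 27104 genes with an adjusted p (3.79% lower and 2.42% higher in osnat10). That member was PGK (log2 fold change -0.97, SE 0.30, adjusted p = 0.023 in the authors' deposited table). PRK followed with -1.16 (SE 0.45, adjusted p = 0.0999), and the authors' deposited table gave TK -0.56 (adjusted p = 0.14) and SBPase -0.72 (adjusted p = 0.19). For GAPA the sign differed between the sources, at -0.42 (SE 0.86, adjusted p = 0.86) in the authors' deposited table and 0.18 in limma.

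**Figure D2:**
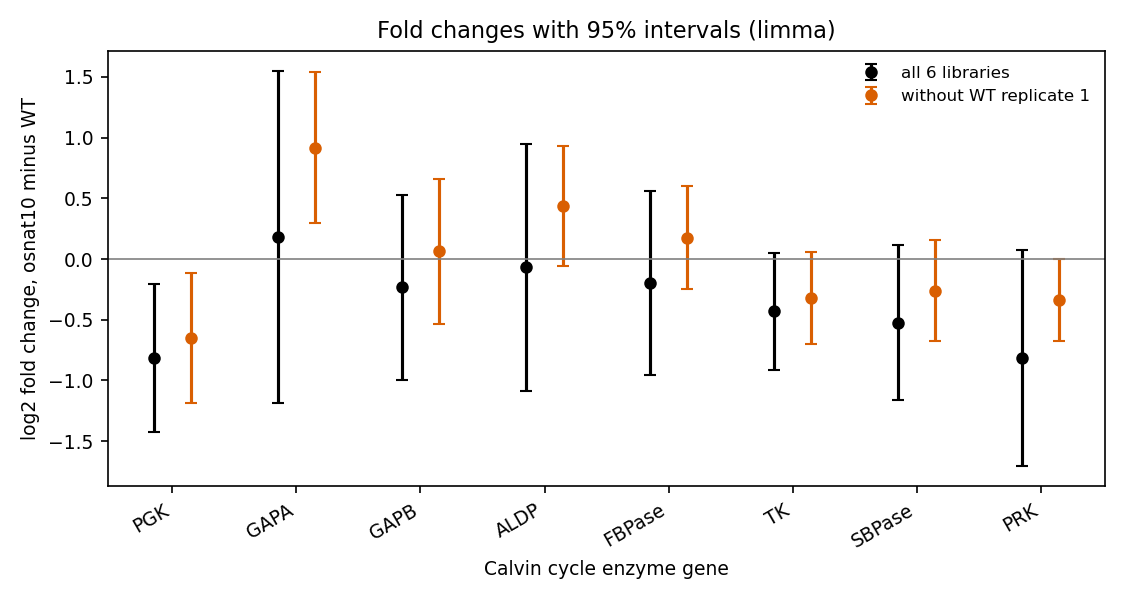
Log2 fold change of osnat10 minus WT with 95% intervals from limma for the 8 genes, with all 6 libraries in black and without WT replicate 1 in orange. The interval with all libraries lies below 0 only for PGK, and without WT replicate 1 the point moves from below to above 0 for GAPB, ALDP and FBPase.

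WT replicate 1 held the highest of the 6 values for 8 of the 8 members, against 11.1% of tested genes. Relative to the mean of WT replicates 2 and 3, it was 4.46-fold higher for GAPA, 2.83-fold for ALDP, 2.71-fold for PRK, 2.18-fold for FBPase, 1.80-fold for GAPB and 1.72-fold for SBPase. PGK and TK differed least there, at 1.39-fold and 1.25-fold. Over all tested genes the median of this ratio was 0.822. WT replicate 3 was the lowest WT library for all 8 genes.

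Without WT replicate 1, limma called 0 of the 8 members and 11.1% of tested genes, and the members' median log2 fold change was -0.10. GAPA then had a log2 fold change of 0.92 (SE 0.26, adjusted p = 0.070) and ALDP one of 0.44 (adjusted p = 0.22), while that of PGK was -0.65 (adjusted p = 0.12). PGK, TK, SBPase and PRK still lay lower in all osnat10 libraries than in both remaining WT libraries, as did 22.3% of tested genes, and GAPA and ALDP lay higher in all of them, as did 24.6%. Without WT replicate 3 all 8 log2 fold changes were negative and 0 of the 8 were called, with 4.04% of tested genes called, and that of PGK was -1.04 (adjusted p = 0.066).

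Some antenna and clock transcripts also set WT replicate 1 apart from the other WT libraries. CAB2R, an antenna protein gene, measured 1992, 22.3 and 24.8 RPKM in the WT libraries, against 665, 477 and 641 in the osnat10 libraries. CCA1, a clock repressor whose transcript peaks around dawn in plants, measured 162, 3.71 and 2.52 RPKM in the WT libraries, against 62.3, 50.3 and 50.9 in the osnat10 libraries. GI, which peaks later in the day, had the reverse order, with 72.6, 198 and 178 RPKM in the WT libraries, against 93.8, 98.9 and 88.4 in the osnat10 libraries. For CAB2R and CCA1 the osnat10 libraries lay between WT replicate 1 and the other two WT libraries, as they did for GAPA and ALDP. Summed over the 19 antenna genes the level was 12105, 870.2 and 581 RPKM in WT and 3695 to 4154 RPKM in osnat10, and limma called 0 of the 14 that were tested. Their log2 fold changes in limma were positive for 11 of the 14, with a median of 0.74. CAB2R had a WT replicate 1 value 84.4-fold above the mean of the other WT libraries, against 12.5-fold for Lhcb1.1 and 10.7-fold for CP29, the other 2 of the 3 most abundant antenna genes. Their direction depended on the source. The limma log2 fold changes were 2.49 for CAB2R, 0.47 for Lhcb1.1 and 1.18 for CP29. In the authors' deposited table they were -0.46, -0.94 and 0.0087, so the positive values do not show higher antenna transcripts in osnat10. Of the 9 clock genes, 6 had a negative log2 fold change and 0 were called in limma. Their summed levels were 391, 415 and 362 RPKM in WT and 276 to 302 RPKM in osnat10. Genes high in WT replicate 1, such as CCA1, and genes low there, such as GI, offset each other in this sum. The sum therefore cannot show whether the clock genes set WT replicate 1 apart. All 9 clock genes are named here, whatever their level. In WT replicate 1, LHY stood at 10.7 and OsPRR95 at 1.81 times the mean of the other WT libraries. OsPRR59 stood at 0.935, OsPRR73 at 0.862, OsPRR1 at 0.555, Hd2 at 0.528 and OsPCL1 at 0.423 times that mean. Between the genotypes, OsPRR95 lay higher in all osnat10 libraries than in all WT libraries, as did 17.2% of tested genes (limma adjusted p = 0.099). OsPCL1 was the 1 clock gene with an adjusted p under 0.05 in the authors' deposited table, where it was lower in osnat10 (adjusted p = 0.036). The part of these differences in the members' values was not tested.

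**Figure D3:**
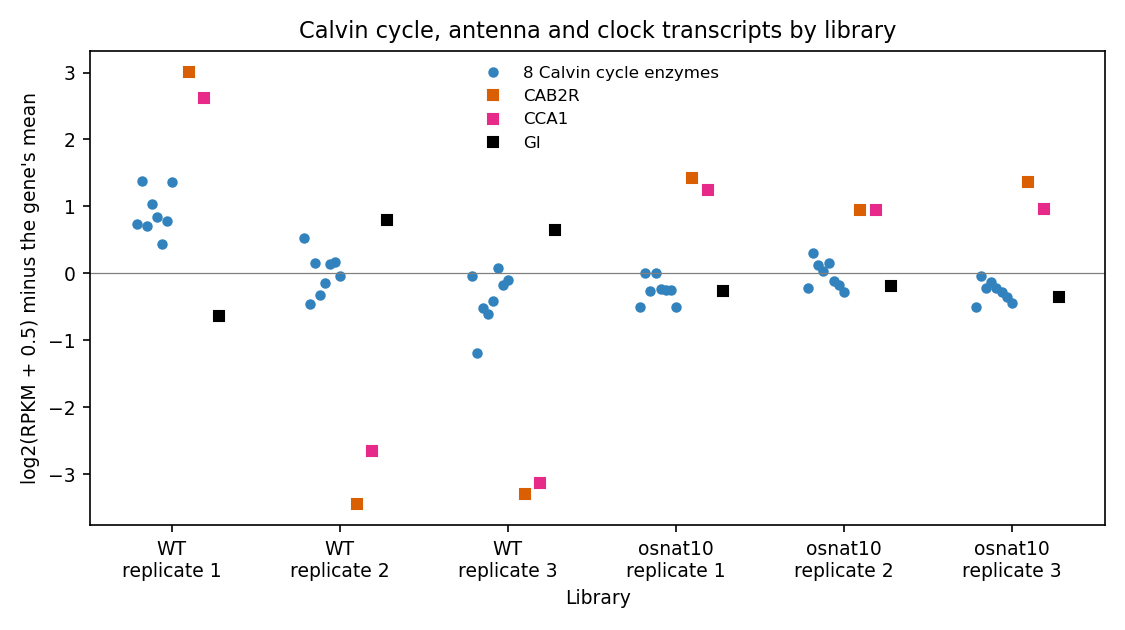
Log2(RPKM + 0.5) of each gene minus its own mean over the 6 libraries, with 1 point per gene and library, for the 8 Calvin cycle enzymes (blue), the antenna gene CAB2R and the clock genes CCA1 and GI. The Calvin cycle points are highest in WT replicate 1 and lie close together in the osnat10 libraries, and CAB2R and CCA1 are low in WT replicates 2 and 3, where GI is high.

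As a check of the tissue, both leaf and root transcripts were present in all libraries. Of the 8 root markers (RCc-type genes, LSI1 and LSI2), 5 lay higher in all osnat10 libraries than in all WT libraries (17.2% of tested genes did), 0 were called in limma and none was at 0 in all libraries. The authors' deposited table had 2 of them higher in osnat10 at an adjusted p under 0.05, among them RCc3 (adjusted p = 0.039 in the authors' deposited table). The silicon transporter genes had negative log2 fold changes, -0.33 for LSI1 (214 ± 67.0 RPKM in WT and 166 ± 20.4 in osnat10) and -0.28 for LSI2 (129.7 ± 45.2 and 104 ± 19.4). Their genotypes overlapped, and the other 6 markers had positive values. The summed level of the 8 markers was 419 to 768 RPKM in WT and 946 to 1150 RPKM in osnat10. Whether the makeup of the seedlings differed, and its part in the members' values, was not tested.

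Ratios of 2 genes within a library do not move with the scaling of the library, and 4 were compared with exact permutation tests over the 6 libraries (two-sided), which cannot give a p below 0.10 in this design. The ratio of PRK to GAPA, the enzymes held together by CP12, was 0.419, 0.560 and 0.905 in WT replicates 1, 2 and 3 and 0.297, 0.282 and 0.317 in osnat10. All osnat10 ratios lay below all WT ratios. The difference was -1.00 on the log2 scale (exact permutation p = 0.10, the smallest possible, and 0.40 after Benjamini-Hochberg adjustment over the 4 ratios).

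The ratio of GAPA to GAPB, subunits of the same complex, was 2.10, 0.864 and 0.829 in WT and 1.594, 1.4999 and 1.503 in osnat10. The osnat10 ratios lay close together, between WT replicate 1 and the other WT libraries (exact permutation p = 0.40, adjusted p = 0.53). The ratio of SBPase to FBPase was 2.39, 3.08 and 2.94 in WT and 2.45, 1.98 and 2.27 in osnat10, with overlap between the genotypes (exact permutation p = 0.20, adjusted p = 0.40). The sum of the 8 members over the sum of the 6 Rubisco small subunit genes was 0.628 ± 0.124 in WT and 0.662 ± 0.065 in osnat10 (SD, n = 3 each, exact permutation p = 0.60, adjusted p = 0.60).

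**Figure D4:**
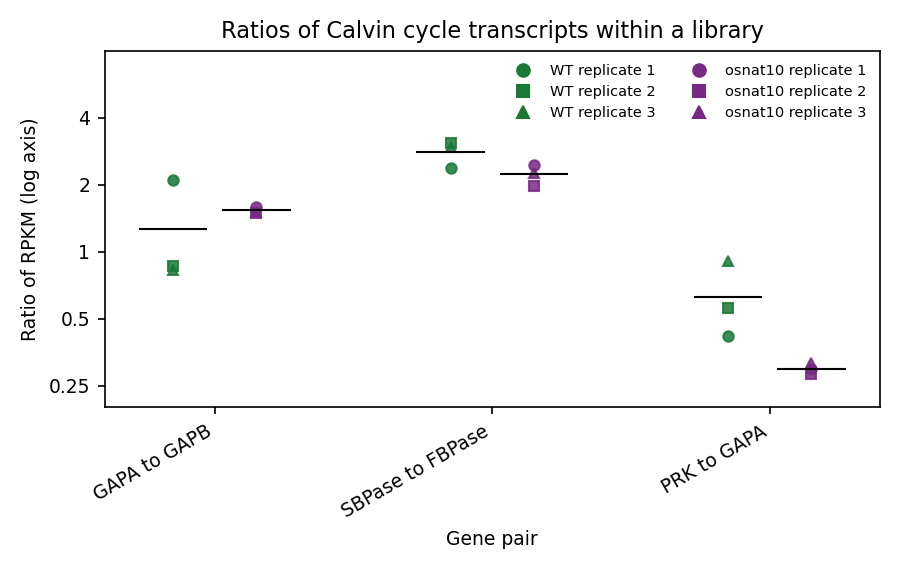
Ratio of the RPKM of 2 Calvin cycle genes within each library (log axis), with 1 point per library and a bar at the mean of each genotype. The osnat10 points for PRK to GAPA lie below all WT points, while for GAPA to GAPB they lie between WT replicate 1 and the other two WT libraries.

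Genes annotated as isomerases or epimerases of triose and pentose phosphates numbered 8. They were taken by words in their annotation and not limited to the cycle, since OsTPI1 among them is annotated as glycolytic. In limma, 7 of the 8 had a negative log2 fold change, their median was -0.20, and 0 were called. RPE, the chloroplast ribulose-phosphate epimerase, measured 532, 282 and 233 RPKM in the WT libraries, against 249, 296 and 248 in the osnat10 libraries (limma log2 fold change -0.31 and adjusted p = 0.62), inside the WT range. The triosephosphate isomerase gene Os09g0535000 stood at 447 ± 76.8 and 358 ± 26.8 RPKM and the ribose-5-phosphate isomerase gene Os07g0176900 at 292 ± 96.5 and 216 ± 25.9, with overlap between genotypes for both. OsTPI1, annotated as the glycolytic isomerase, measured 243, 239.3 and 239.3 RPKM in the WT libraries, against 198, 211 and 215 in the osnat10 libraries (adjusted p = 0.50). It lay lower in all osnat10 libraries, as did 7.79% of tested genes, and was nearly constant in WT. Of the 8 genes, 2 lay lower in all osnat10 libraries and 1 higher, where 17.2% of tested genes lay higher. OsRPI, a ribose 5-phosphate isomerase, stood at 176 ± 41.8 and 153 ± 16.3 RPKM.

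RPE was also the gene whose profile over the 6 libraries was most like the members' median profile. Among 2030 other tested genes with a mean of 50 RPKM or more, its centred log2 values differed from that profile by a root mean square of 0.053, against a median of 0.54 over these genes. The next were Os01g0912700 (0.075) and Os10g0213700 (0.080), which the table describes only by similarity to unnamed proteins, OsHPR1, the peroxisomal hydroxypyruvate reductase of photorespiration (0.082), and PsaL, a photosystem I subunit (0.085). Among the members themselves SBPase was closest to the median profile (0.0999) and GAPA farthest (0.52).

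The regulators that switch the cycle with light were represented by 13 genes for CP12, plastid thioredoxins and their reductases, of which 5 had a negative and 8 a positive log2 fold change and 0 were called in limma. The 2 most abundant of them, both annotated as similar to CP12, had log2 fold changes of opposite sign. Os01g0303000 measured 605, 736 and 539.7 RPKM in the WT libraries, against 312, 439 and 288 in the osnat10 libraries. All osnat10 values lay below all WT values (limma log2 fold change -0.87 and adjusted p = 0.13), and in the authors' deposited table it was lower with an adjusted p = 0.0072. OsCP12 (Os03g0306800) measured 166, 58.0 and 192 RPKM in the WT libraries, against 318, 299.6 and 305 in the osnat10 libraries. Its osnat10 values lay above all WT values (limma log2 fold change 1.32 and adjusted p = 0.16), with an adjusted p = 0.13 in the authors' deposited table. Of the 13 genes, 1 lay lower in all osnat10 libraries than in all WT libraries, against 7.79% of tested genes. The reverse held for 3, against 17.2% of tested genes.

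The catalytic chain of ferredoxin-thioredoxin reductase, Os09g0249900, which passes electrons from ferredoxin to thioredoxins, stood at 103 ± 16.4 and 78.2 ± 10.4 RPKM. Its variable chain, Os02g0638300, stood at 76.3 ± 13.2 and 57.0 ± 5.86 RPKM, and the thioredoxin M5 gene OsTRX (Os12g0188700) at 115 ± 30.9 and 115 ± 11.5 RPKM. The genotypes overlapped for these 3 genes.

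Rubisco genes, taken as 19 tested genes of 23 with the enzyme's name in the description, had 13 negative log2 fold changes, a median of -0.20 and 0 calls in limma. OsRcaII, the Rubisco activase, measured 6667, 1012 and 611 RPKM in the WT libraries, against 2163, 2515 and 1897 in the osnat10 libraries. As for GAPA, all osnat10 libraries lay between WT replicate 1 and the other two WT libraries. The small subunit gene Os12g0274700 stood at 5135 ± 4384 and 2816 ± 667 RPKM, RbcS3 at 2724 ± 565 and 2607 ± 345, RbcS5 at 1404 ± 976 and 723 ± 45.3, and Os12g0292400 at 442 ± 115 and 381 ± 61.9. Small subunit genes are near-identical, and the sources used here do not say how reads were divided between them.

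Genes that use the triose phosphate made by the cycle, for its export and for starch and sucrose, were 18 tested genes of 21. They had 10 negative and 8 positive log2 fold changes and 0 calls in limma, and their median of -0.04 lay near 0. Of these 18, 3 lay lower in all osnat10 libraries than in all WT libraries, against 7.79% of tested genes. The reverse held for 0, against 17.2% of tested genes. The sucrose phosphatase gene Os02g0143100 measured 74.3, 53.3 and 52.5 RPKM in the WT libraries, against 37.3, 48.5 and 44.9 in the osnat10 libraries, lower in all osnat10 libraries (adjusted p = 0.26). The starch synthesis genes OsAGPS2a and OsAGPL1 stood at 57.7 ± 17.6 and 52.7 ± 1.97 RPKM and at 57.4 ± 25.5 and 49.7 ± 3.93 RPKM. OsSPS6, a sucrose phosphate synthase, stood at 49.4 ± 10.3 and 53.7 ± 2.73 RPKM. Os08g0344600 is described as similar to a triose phosphate translocator of the non-green plastid type, so its part in export from leaf chloroplasts is not given. It measured 17.1, 56.0 and 86.0 RPKM in the WT libraries, against 41.3, 47.3 and 48.4 in the osnat10 libraries. This gene was lowest in the library where the 8 members were highest.

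Other genes annotated with the enzyme names of the members included the glycolytic forms. Of 22 such genes, 20 were tested, with 11 positive and 9 negative log2 fold changes and a median of 0.16. Limma called 1 of them, the aldolase-like gene Os12g0169600, which fell from 35.4 ± 6.999 RPKM in WT to 7.45 ± 2.21 in osnat10 (SD, n = 3 each, log2 fold change -2.19, limma adjusted p = 0.027) and is named here after its values were seen. Among the 8 genes whose description says cytosolic or cytoplasmic, a grouping made after the values were seen, 6 log2 fold changes were positive, 0 were called, and the median was 0.34. Of these 8 genes, 3 lay higher in all osnat10 libraries than in all WT libraries, against 17.2% of tested genes.

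The most abundant of them, the cytosolic GAPDH gene Os04g0486600, measured 356, 396 and 451 RPKM in the WT libraries, against 614, 631 and 715 in the osnat10 libraries. The genotypes did not overlap, and WT replicate 1 was the lowest library (log2 fold change 0.71, SE 0.20, limma adjusted p = 0.14). In the authors' deposited table this gene was higher in osnat10 with an adjusted p = 0.011. GSC, a cytoplasmic aldolase, measured 150.3, 91.9 and 102 RPKM in the WT libraries, against 170.2, 237 and 217 in the osnat10 libraries (limma log2 fold change 0.87 and adjusted p = 0.12). OsPGK2, a cytosolic phosphoglycerate kinase named after its values were seen, measured 49.2, 36.0 and 34.6 RPKM in the WT libraries, against 56.9, 65.5 and 65.0 in the osnat10 libraries (limma log2 fold change 0.65 and adjusted p = 0.13). The chloroplast PGK gene lay lower in all osnat10 libraries than in all WT libraries, as did 7.79% of tested genes. OsPGK2 lay higher in all of them, as did 17.2%. The other gene described as a cytosolic phosphoglycerate kinase, Os06g0668200, was also named after its values were seen. Its genotypes overlapped, with mean RPKM of 5.93 for WT against 5.68 for osnat10 (limma log2 fold change -0.023 and adjusted p = 0.97). Os06g0668200 thus did not separate the genotypes as OsPGK2 did, and the difference between these genes was not tested.

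Other abundant genes of this kind did not separate the genotypes. OsAld-Y, a cytoplasmic aldolase, stood at 192 ± 80.2 and 152 ± 20.4 RPKM, OsGapC3 at 236 ± 65.1 and 261 ± 26.1, and FR, another fructose-1,6-bisphosphatase gene with no compartment in its description, at 249.7 ± 148 and 214 ± 25.9. In WT, FR measured 408, 227 and 114 RPKM, with replicate 1 the highest and replicate 3 the lowest, as for the chloroplast FBPase gene. The summed level of the 8 members was 9125, 4619 and 3552 RPKM in WT and 4004 to 4715 RPKM in osnat10. The 8 cytosolic or cytoplasmic genes, grouped after their values were seen, summed to 786 to 942 RPKM in WT and 1137 to 1317 in osnat10. Of this second sum, Os04g0486600 alone held 356 to 451 RPKM in WT and 614 to 715 in osnat10.

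**Figure D5:**
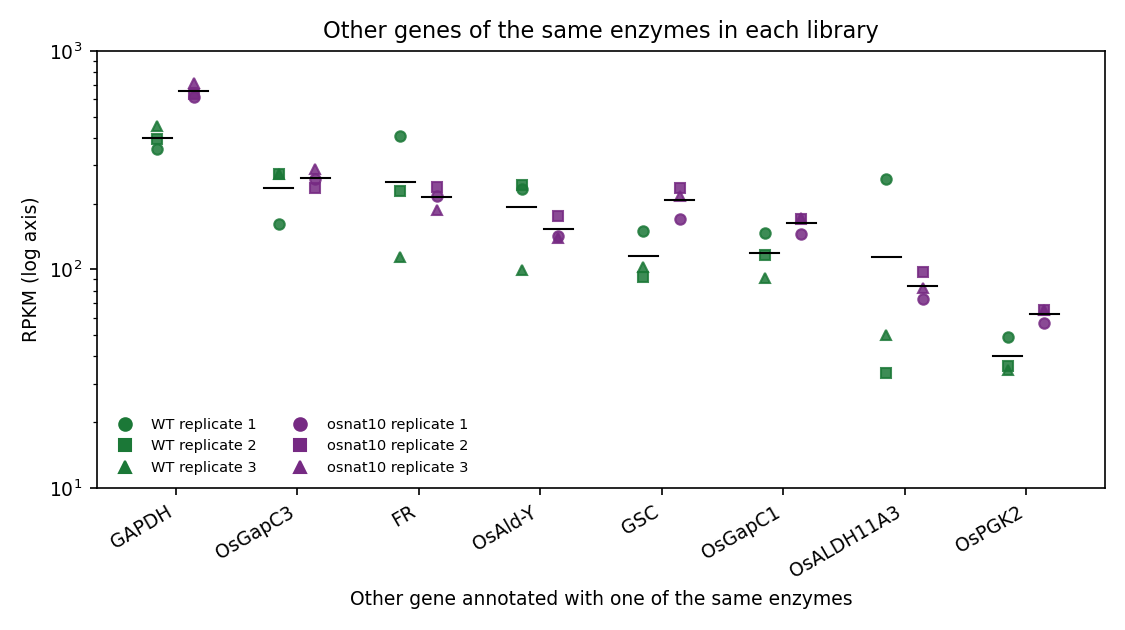
RPKM (log axis) of the other genes annotated with one of the members' enzymes and with a mean of 50 RPKM or more, with 1 point per library and a bar at the mean of each genotype. All osnat10 points lie above all WT points for GAPDH (Os04g0486600), GSC and OsPGK2, and FR and OsALDH11A3 are highest in WT replicate 1.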

How the data were processed

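Per the file headers, the authors deposited RPKM for 38978 genes in 6 RNA-seq libraries and a DESeq2 comparison of osnat10 with WT for 32190 genes. From that table the log2 fold change with its SE, the p-value and adjusted p-value, and the mean signal per gene, all deposited by the authors, were used, and the Wald score deposited by the authors was not. STAR 2.5.3a, DESeq2, deepTools and the build IRGSP-1.0 are named in the submitters' processing notes, with no role. The sources used here name no read counter, use of strand or annotation version, so near-identical copies and overlapping genes are uncertain.

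Whole reads were recovered for 32190 genes from the RPKM steps and the authors' mean signal (99.98% of values above 0 within 0.05 reads), which gave the depths. Log2(RPKM + 0.5) was fitted with limma 3.58.1 (R 4.3.3, empirical Bayes with trend, no covariates) for genes with at least 0.5 RPKM in 3 or more libraries, with Benjamini-Hochberg adjustment over all of them and a threshold of 0.05. This understates fold changes of low genes. The fit was tested on simulated data. Python 3.11.15, numpy 2.4.6, pandas 2.3.3 and matplotlib 3.10.9 were used. Alternatives covered pseudocounts, filters, scaling, the replicate block, each library left out, and limma-voom on recovered reads. Pathway genes were taken by words in symbols and descriptions. Genes named from a list were among its 5 of highest mean RPKM (3 for the antenna, root and clock lists), except where stated, and the 5 genes most like the members' median profile. The members and lists were chosen with earlier results of these data known. Nothing says whether replicates came from separate plantings, so p-values measure the spread between these libraries.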

Additional observations from a re-analysis of the deposited data

How the results depend on the processing

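Limma called 0 of the 8 members under all 14 alternatives, with a lowest adjusted p of 0.066, for PGK without WT replicate 3 (0.066 to 0.47 for PGK over the alternatives). Of 112 member log2 fold changes under alternatives, 107 kept their direction. The exceptions were ALDP under quantile normalisation (0.24) and 4 values with a library left out, without WT replicate 1 for GAPB, ALDP and FBPase and without WT replicate 3 for GAPA. With a library left out the log2 fold change ran from -0.37 to 0.92 for GAPA, -0.55 to 0.063 for GAPB, -0.39 to 0.44 for ALDP, -0.45 to 0.18 for FBPase, -1.04 to -0.65 for PGK, -0.50 to -0.32 for TK, -0.74 to -0.26 for SBPase and -1.07 to -0.34 for PRK. The sum of the members over the Rubisco small subunits had a log2 difference of 0.09, from -0.0035 (without WT replicate 2) to 0.25. That of PRK to GAPA ran from -1.26 to -0.70, that of GAPA to GAPB from 0.18 to 0.86 and that of SBPase to FBPase from -0.44 to -0.24. The 4 members lower in all osnat10 libraries were the same genes under median of ratios scaling and quantile normalisation, and with a library left out 4 to 5 members lay lower (GAPB joining without WT replicate 3), as did 9.66% to 22.3% of tested genes. For this count of non-overlapping members the alternatives were chosen after seeing the data.

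The count over all genes depended on the setting. It was 37 (30 higher), 11 with the stricter filter, 108 (51 higher) under median of ratios scaling, 52 (28 higher) under quantile normalisation, 21 with voom on recovered reads, and 8 to 2713 with a library left out (2713 without WT replicate 1, 985 without WT replicate 3, 10 without WT replicate 2, and 8, 11 and 10 without osnat10 replicates 1, 2 and 3). The cause was not tested. The median log2 fold change of all genes was 0.11 as deposited and -0.03 after quantile normalisation. With the replicate block 20 genes and 0 members were called. The deviations of same-numbered libraries correlated at -0.059, -0.026 and 0.13, and WT replicate 1 correlated best with osnat10 replicate 2. Over all pairs of a WT and an osnat10 library the values ran from -0.11 to 0.13. Values this small cannot show whether the numbers pair the libraries. Each member had at least 4361 reads in a library, which bounds its counting error only.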
